A study of Bos taurus with 16 samples.

Results

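The genes described here are the subunits of the transcription factor NF-kB and the proteins that restrain or assist it, measured in endometrial and blood CD14+ cells of pregnant cows. The members were 10 genes chosen by name, namely the subunits NFKB1, NFKB2, REL, RELA and RELB, the inhibitors NFKBIA, NFKBIE and TNFAIP3, the kinase IKBKB and the coactivator BCL3. A probe belonged to a member if the array's gene name, or the symbol in brackets in its description, was that member. By this rule 9 of the 10 genes had a probe, with 1 probe and 2 spots each, and these were 9 of the 21475 probes on the array. No probe carried the name NFKB1, and its level was not analysed here.

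CD14 is a surface protein of monocytes and macrophages that binds bacterial lipopolysaccharide. Cells carrying it were sorted by flow cytometry from enzymatically dispersed interplacentomal endometrium and from blood mononuclear cells, both taken at an abattoir, and the study compared resident uterine macrophages with circulating monocytes. The 4 cows, untreated, were at days 164, 239, 242 and 248 of pregnancy and are called animals 1 to 4 in that order. RNA of both tissues of an animal was amplified and hybridized together to bovine Agilent oligonucleotide arrays with 2 colours, on 2 arrays for each animal, so that each tissue was read in 8 channels of 8 arrays from 4 animals. The dyes of the tissues were swapped between the 2 arrays in animals 1, 2 and 4 and were the same on both in animal 3. Animals of each tissue are the replicates, and the day of pregnancy cannot be told apart from the animal. Set against the authors' values, every scanner file proved to hold the technical replicate other than the one it was labelled with, and it was read as such. Taken by their labels instead, the files exchange the tissues of animals 1, 2 and 4, and the median log2 ratio of the members becomes 0.22 in place of -0.97, with adjusted p of 1 in limma for all 9.

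NF-kB proteins act as dimers. RELA, REL and RELB carry a domain that activates transcription, and NFKB2 is made as a precursor that is cleaved to its DNA-binding form. In resting cells the IkB proteins, of which NFKBIA and NFKBIE are members, hold the dimers in the cytoplasm. Receptors for microbial products and inflammatory cytokines activate the IkB kinases, IKBKB among them, which mark the IkB proteins for destruction. Freed dimers then enter the nucleus of a monocyte or macrophage and switch on cytokine, chemokine and survival genes. They also switch on their own inhibitors, such as NFKBIA and the ubiquitin-editing enzyme TNFAIP3, so that these transcripts are widely used as readouts of the pathway.

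Each probe was 60 bases long. The whole probe is shown for REL and TNFAIP3, whose sequence read from its first base holds no stop codon before its last 3 bases. In the probe of TNFAIP3 these last bases, in capitals, are a stop codon. The probes of RELA, RELB and NFKBIA, not shown, also held no stop codon before their last 3 bases in that reading. For the other sequences shown, 30 bases are given around the letters AATAAA, in capitals, the form of the polyadenylation signal that lies close to the end of many transcripts. They are shown for the gene with the lowest ratio, BCL3, and for the 2 other members whose probe holds these letters. Where a probe lies on its transcript was not determined.
REL, bases 1 to 60: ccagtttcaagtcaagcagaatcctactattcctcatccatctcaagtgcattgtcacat
TNFAIP3, bases 1 to 60: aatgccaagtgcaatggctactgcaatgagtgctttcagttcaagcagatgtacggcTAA
BCL3, bases 31 to 60: ttggatttcttttgtAATAAActatttttg
NFKB2, bases 13 to 42: tcagttggggcaAATAAAagattctcatga
NFKBIE, bases 1 to 30: ttggggAATAAAgcagtacagtttctgacc

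AATAAA, searched on the printed strand alone and overlapping no other motif searched, was found in these 3 of the 9 member probes and in 11.8% of all 21475 probes. The content of G and C ranged from 26.7% in the probe of BCL3 to 55% in those of NFKB2 and RELB, around a median of 43.3% over all probes. In the files the 9 probes are those of LOC526392 (NFKB2, XM_604762), LOC509135 (REL, XM_586032), LOC508233 (RELA, XM_584983), LOC522670 (RELB, XM_600955), NFKBIA (XM_587330), LOC506727 (NFKBIE, XM_583214), LOC508105 (TNFAIP3, XM_584832), IKBKB (NM_174353) and LOC531942 (BCL3, XM_610447). All 9 probes passed the filter on dim spots. They were well above background in 8 of 8 blood channels and, apart from TNFAIP3 with 6, in 8 of 8 endometrial channels.

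All 9 members had a lower mean level in endometrial than in blood CD14+ cells, with log2 ratios of endometrium over blood from -2.42 for BCL3 to -0.68 for TNFAIP3. None passed the test after adjustment over all 16653 probes tested, with adjusted p of 0.262 to 0.343 in limma. The study's pathway analysis, at its own thresholds, counted RELA among the genes overexpressed in blood. A probe was called where its adjusted p was 0.05 or lower and its level differed more than 2-fold, and 11 probes of all were (0.0661%). By the unadjusted p of limma, 7 of the 9 members were lower in endometrium at 0.05 or less, beside 8.64% of all probes. Those more than 2-fold lower as well were 4 of the 9 members (RELA, RELB, NFKBIE and BCL3) and 5.11% of all probes. The ratio was below 0 in every animal for 8 of the 9 members, against 14.7% of all probes, and in animals 1, 2 and 3 for all 9, against 22.5%. The median log2 ratio of the members was -0.97, beside -0.02 over all probes tested. In whole sorted preparations, fewer cells of a type and less RNA per cell cannot be told apart.

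**Figure D1:**
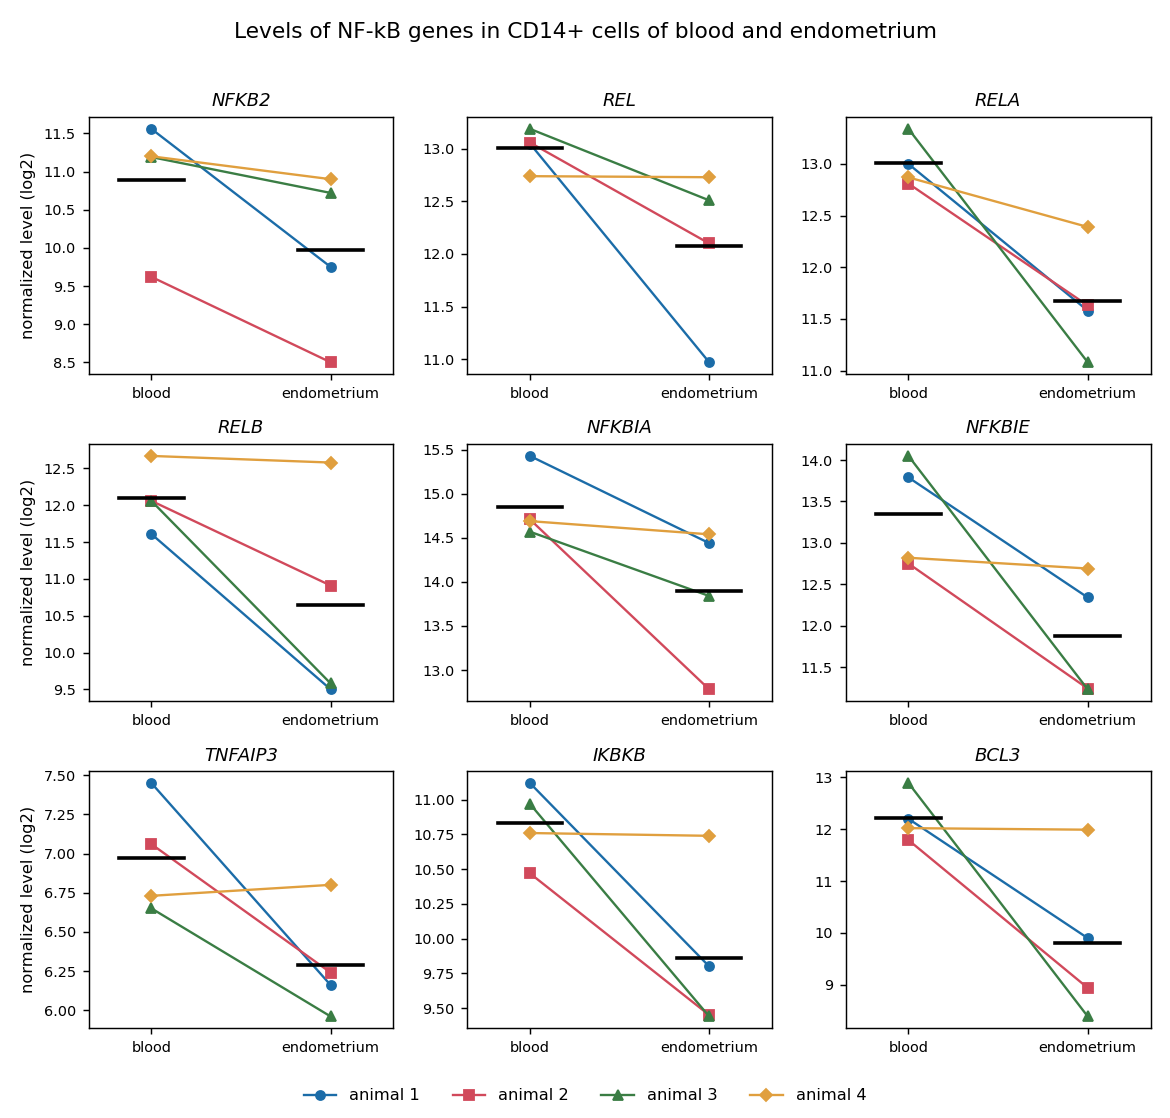
Normalized level (log2) of the probe of each of 9 NF-kB genes in blood and endometrial CD14+ cells. Each line joins the tissues of 1 of 4 animals, a black bar is the mean of a tissue, and the vertical scale differs between genes. The lines of animals 1, 2 and 3 run downward from blood to endometrium for all 9 genes, and the line of animal 4 is close to level for most.

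RELA, the activating subunit of the common NF-kB dimer, had normalized log2 levels of 13, 12.81, 13.34 and 12.87 in the blood cells of animals 1 to 4 and of 11.58, 11.63, 11.08 and 12.39 in their endometrial cells. The blood levels of RELA all lay above the endometrial ones, and the SD over animals was 0.24 in blood and 0.54 in endometrium. The mean log2 ratio of RELA was -1.34 ± 0.34 (SE, n = 4), a 2.53-fold higher level in blood, with adjusted p = 0.262 in limma, the lowest of the members. Levels that did not overlap in this direction were found for 4 of the 9 members, RELA, REL, NFKBIA and NFKBIE, and for 3.03% of all probes.

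REL, which encodes c-Rel, a subunit prominent in cells of the blood lineages, had log2 levels of 13.05, 13.06, 13.19 and 12.74 in blood of animals 1 to 4 and of 10.97, 12.10, 12.51 and 12.73 in endometrium. The blood levels of REL had the smallest SD of any member in blood, 0.19, and its tissues were separated by only 0.01 at the closest pair, both in animal 4. The log2 ratios of REL were -2.08, -0.97, -0.68 and -0.01, with a mean of -0.93 ± 0.38 (SE, n = 4) and adjusted p = 0.331 in limma. The difference for REL was thus widest in animal 1 and close to nil in animal 4.

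RELB, the activating subunit of the noncanonical pathway, had log2 levels of 11.61, 12.06, 12.06 and 12.67 in blood and of 9.5, 10.91, 9.58 and 12.58 in endometrium of animals 1 to 4. The endometrial level of RELB in animal 4 was above the blood levels of the other animals, so the tissues overlapped, and yet each animal had the lower level in its own endometrium. The mean log2 ratio was -1.46 ± 0.45 (SE, n = 4), or 2.75-fold higher in blood, with adjusted p = 0.272 in limma. NFKB2, whose processed product pairs with RELB, had log2 levels of 11.56, 9.62, 11.19 and 11.20 in blood and of 9.75, 8.5, 10.72 and 10.90 in endometrium. Both tissues of animal 2 were lower in NFKB2 than those of the other animals, and its blood level lay below 3 of the 4 endometrial levels. The comparison within animals gave NFKB2 ratios of -1.81, -1.12, -0.47 and -0.30, with a mean of -0.92 ± 0.32 (SE, n = 4) and adjusted p = 0.289 in limma.

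Among the inhibitors, NFKBIA, which encodes IkB-alpha, had log2 levels of 15.43, 14.71, 14.57 and 14.69 in blood and of 14.44, 12.78, 13.84 and 14.54 in endometrium of animals 1 to 4. The levels in the blood of animals 2, 3 and 4 lay close together, with animal 1 above them, and every endometrial level was below every blood level, by 0.02 at the closest. The mean log2 ratio of NFKBIA was -0.94 ± 0.34 (SE, n = 4), with adjusted p = 0.298 in limma, and the widest difference was that of animal 2, at -1.93.

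NFKBIE, which encodes IkB-epsilon, had log2 levels of 13.79, 12.75, 14.05 and 12.82 in blood and of 12.34, 11.24, 11.23 and 12.69 in endometrium. The technical replicates of NFKBIE differed by at most 0.08 in their log2 ratio, the closest of any member. Its mean log2 ratio was -1.48 ± 0.45 (SE, n = 4), 2.79-fold higher in blood, with adjusted p = 0.272 in limma.

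TNFAIP3, which encodes A20, an enzyme that removes ubiquitin chains from signalling proteins upstream of the IkB kinases, was a dim probe. Its log2 levels were 7.45, 7.06, 6.65 and 6.73 in blood and 6.16, 6.24, 5.96 and 6.80 in endometrium of animals 1 to 4. In animal 4 TNFAIP3 was 0.07 higher in endometrium, the only value above 0 among the ratios of the 9 members in 4 animals. The mean log2 ratio of TNFAIP3 was -0.68 ± 0.29 (SE, n = 4), with adjusted p = 0.343 in limma. On the authors' log2 values the mean ratio of the same probe was -2.48 ± 0.97 (SE, n = 4), with single animals from -3.94 to 0.26, and with no background correction it was -1.05. The difference for this probe thus moved by more than 1.5 times with the signal used and kept its direction.

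IKBKB, the catalytic IkB kinase of the canonical pathway, had log2 levels of 11.12, 10.47, 10.97 and 10.76 in blood and of 9.80, 9.45, 9.44 and 10.74 in endometrium. Endometrial levels of animals 1, 2 and 3 lay below all blood levels, and that of animal 4 lay among them. Its mean log2 ratio was -0.97 ± 0.32 (SE, n = 4), with adjusted p = 0.278 in limma.

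BCL3, an atypical IkB protein that works in the nucleus and lends NF-kB dimers an activating domain, had the lowest ratio of the members. Its log2 levels were 12.20, 11.79, 12.89 and 12.02 in blood and 9.90, 8.94, 8.39 and 11.99 in endometrium of animals 1 to 4. Endometrial levels of BCL3 in animals 1, 2 and 3 were far below all blood levels, whereas in animal 4 the tissues differed by 0.02. The mean log2 ratio of BCL3 was -2.42 ± 0.72 (SE, n = 4), or 5.34-fold higher in blood, with adjusted p = 0.269 in limma. Of all 16653 probes tested, 29 (0.174%) had a ratio at or below that of BCL3. The same share was 15.4% for TNFAIP3, the member with the smallest difference in this normalization. On the authors' log2 values the ratio of TNFAIP3 was -2.48, the widest difference of the members after that of BCL3.

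**Figure D2:**
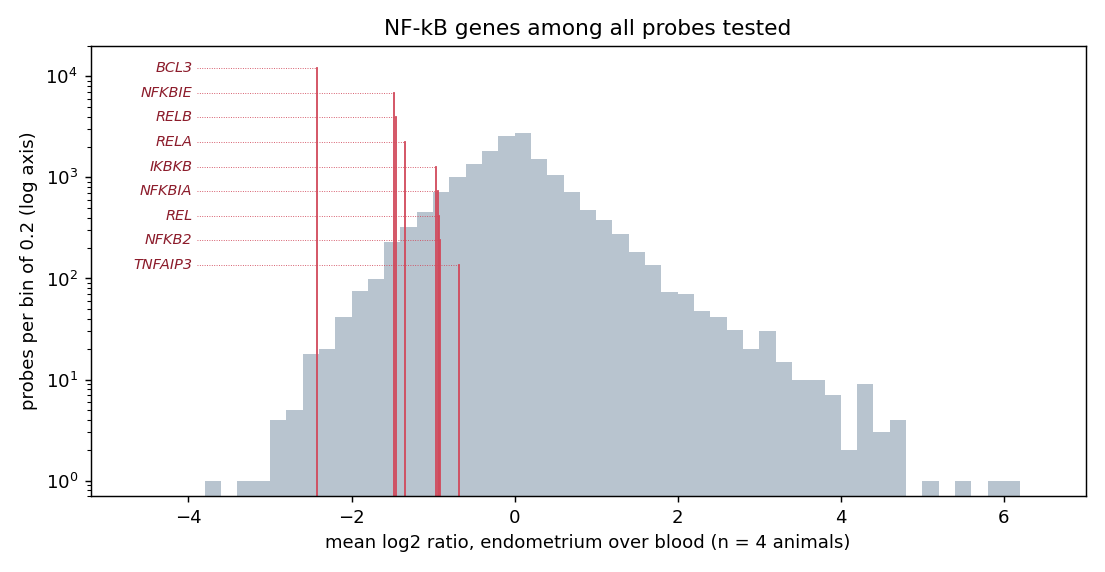
Number of probes (log axis) in bins of 0.2 of the mean log2 ratio of endometrium over blood, for the 16653 probes tested, with the 9 NF-kB genes as red lines. All 9 lines lie left of 0, between -2.42 and -0.68, and the line of BCL3 lies in the lower tail.

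The authors' log2 values, which had been normalized separately, gave the members log2 ratios of endometrium over blood between -2.57 for BCL3 and -0.91 for NFKBIA. On this scale the ratio was -1.38 ± 0.38 for RELA, -0.95 ± 0.45 for REL, -1.53 ± 0.58 for RELB and -0.99 ± 0.37 for NFKB2 (SE, n = 4). It was -1.54 ± 0.55 for NFKBIE, -1.06 ± 0.35 for IKBKB and -2.57 ± 0.98 for BCL3. Apart from TNFAIP3, the members had nearly the same ratios from either set of values. The adjusted p of the members from the authors' values in limma lay between 0.21 and 0.413. The median of all probes was -0.14 on this scale, against -0.02 in the normalization used here.

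The size of the difference varied between animals. In animals 1, 2 and 3 the median log2 ratio over the 9 members was -1.45, -1.15 and -1.53, and in animal 4 it was -0.08. Over all probes tested, the medians of the 4 animals were -0.09, -0.03, -0.02 and -0.03, and the SD over probes was smallest in animal 4, at 0.71, beside 1.1, 1.0 and 1.49. Animal 4 had the smallest difference for all 9 members and the highest endometrial level for all 9. The widest difference belonged to animal 3 for 5 members (RELA, RELB, NFKBIE, IKBKB and BCL3), to animal 1 for NFKB2, REL and TNFAIP3, and to animal 2 for NFKBIA. In animal 3 the dyes were not swapped between its arrays, so dye and tissue cannot be told apart there. In blood the levels differed less between animals, with a smaller SD than in endometrium for 8 of the 9 members, TNFAIP3 being the exception. Both arrays of an animal gave similar ratios, with a median gap of 0.12 and a highest of 0.68 over the 9 members and 4 animals. The gap includes a swap of the dyes in animals 1, 2 and 4 and not in animal 3. The SD of a member's ratio over animals was 0.56 to 1.85.

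**Figure D3:**
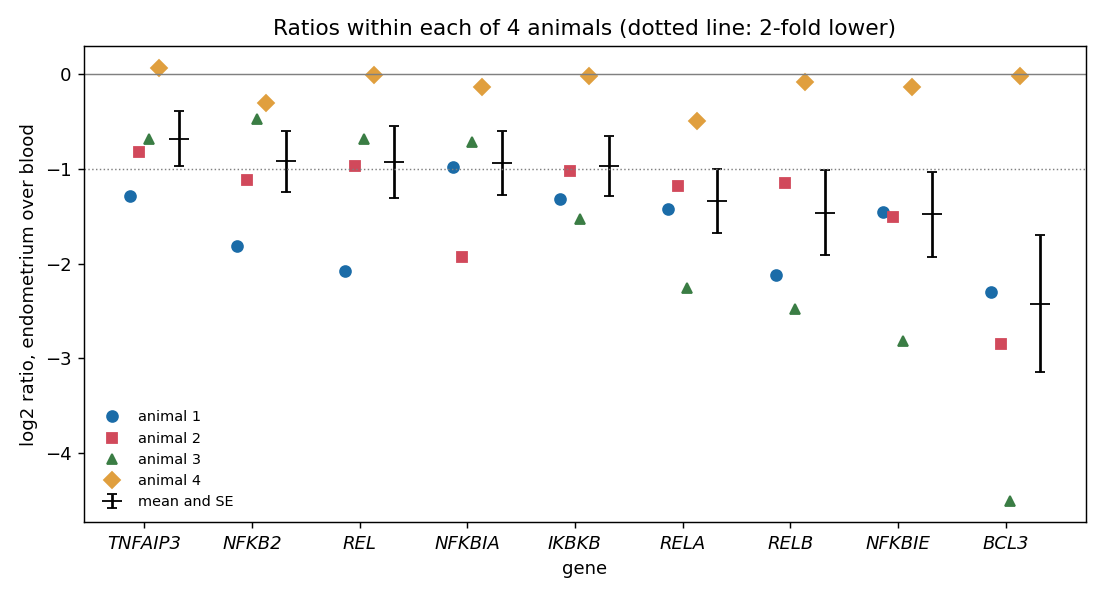
Log2 ratio of endometrium over blood of each NF-kB gene in each of 4 animals (coloured symbols, the mean of 2 arrays) with the mean and SE over animals in black. Genes are ordered by their mean. The orange diamonds of animal 4 lie between -0.49 and 0.07, above the other 3 animals for every gene.

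The tests were repeated without each animal. Without animal 4, the log2 ratios of the members ranged from -3.22 to -0.93, and 8 of the 9 were more than 2-fold lower at an unadjusted p of 0.05 or less, in place of 4, beside 7.41% of all probes in place of 5.11%. Without animals 1, 2 and 3 in turn, 2, 2 and 3 of the members passed these thresholds, beside 5%, 3.92% and 2.37% of all probes. Without any 1 animal no member was called, and neither was any other probe. A further fit, to the 8 single arrays, had a term for the dye and the animal as random block. It called RELA (log2 ratio -1.38, adjusted p = 0.0371 in limma) and NFKBIE (-1.48, adjusted p = 0.046) among 793 of the 16653 probes tested. Its 8 arrays came from 4 animals and are not 8 independent replicates. The other 7 members were not called there either, and the direction of each of the 9 was the same.

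The upstream list held 24 adaptors and kinases that carry receptor signals to the IkB kinases, of which 19 were tested. None was called, and the median log2 ratio was -0.52. A ratio below 0 was found for 16 of the 19, where 52.6% of all probes tested were below 0. For 6 the ratio was below 0 in all 4 animals, against 14.7% of all probes. The lowest was MAP3K8, a kinase that couples NFKB1-bound complexes to the MAP kinases, at -1.81 ± 0.40 (SE, n = 4), with ratios of -3.17, -1.54, -1.51 and -1.03 in animals 1 to 4 and adjusted p = 0.262 in limma. TRAF3, an adaptor that keeps the noncanonical pathway off, followed at -1.76 ± 0.37. BCL10, an adaptor of antigen receptor signalling, was at -1.36 ± 0.74, with -4.19 in animal 3 and -0.67 to 0.05 in the others. At the other end stood the kinase IKBKE at 0.76 ± 0.41, the kinase MAP3K7 at 0.13 ± 0.21 and the death-domain adaptor TRADD at 0.09 ± 0.33. MAP3K8 and TRAF3 were the genes of this list that were more than 2-fold lower at an unadjusted p of 0.05 or less, beside 5.11% of all probes. The study's pathway analysis counted both among the genes overexpressed in blood, at its own thresholds.

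The list of other inhibitors held 18 further IkB proteins, deubiquitinases and negative regulators, of which 16 were tested. None was called after adjustment, and the median log2 ratio was -0.58, or -0.35 without animal 1. A ratio below 0 was found for 11 of the 16, where 52.6% of all probes tested were below 0. More than 2-fold lower in endometrium at an unadjusted p of 0.05 or less were 6 of them, beside 5.11% of all probes, and 0 were as much higher. TANK, a TRAF-binding regulator, was lowest at -2.26 ± 0.57 (SE, n = 4), with -2.69, -1.80, -3.99 and -0.56 in animals 1 to 4. The nuclear IkB proteins NFKBID, at -1.93 ± 0.63, and NFKBIZ, at -1.54 ± 0.36, came next, and like BCL3 they were lower in endometrium in all 4 animals. Highest were COMMD1 (0.95 ± 0.32) and PDLIM2 (0.82 ± 0.39), which both promote the removal of RELA, and TRAFD1 (0.36 ± 0.26), with adjusted p of 0.285, 0.383 and 0.53 in limma.

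The target list held 29 genes widely known to be switched on by NF-kB, of which 27 were tested. None was called, 19 had a ratio below 0 and 8 above 0, where 52.6% of all probes tested were below 0, and the median log2 ratio was -0.70. This median was -0.33, -0.40 and -1.12 without animals 1, 3 and 4. The ratios of the targets ran from -2.74 to 2.70. By the unadjusted p of limma, 5 targets were more than 2-fold lower at 0.05 or less, beside 5.11% of all probes, and 1 was as much higher. PTGS2, the inducible cyclooxygenase of prostaglandin synthesis, was lowest at -2.74 ± 0.81 (SE, n = 4), with -5.61, -3.01, -1.43 and -0.90 in animals 1 to 4. CD83, a surface protein of activated antigen-presenting cells and B cells, was at -2.02 ± 0.84, with -0.22 and -0.08 in animals 1 and 4. IL1B, the cytokine interleukin-1 beta, was at -2.0 ± 0.72. VCAM1, an adhesion molecule known best from endothelium, had a ratio of 2.70 ± 0.54, with 4.25, 1.0, 3.0 and 2.55 in animals 1 to 4 and adjusted p = 0.259 in limma. On the authors' log2 values VCAM1 was called in limma, higher in endometrium at 3.69 with adjusted p = 0.039. IER3, an early response gene, stood at 1.17 ± 0.48, and MMP9, a matrix protease, at 0.90 ± 0.46. The medians of the target list were -1.75, 0.11, -0.78 and 0.03 in animals 1 to 4, so that, as for the members, they were below 0 in animals 1 and 3 and near 0 in animal 4, while in animal 2 the members had a median of -1.15.

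**Figure D4:**
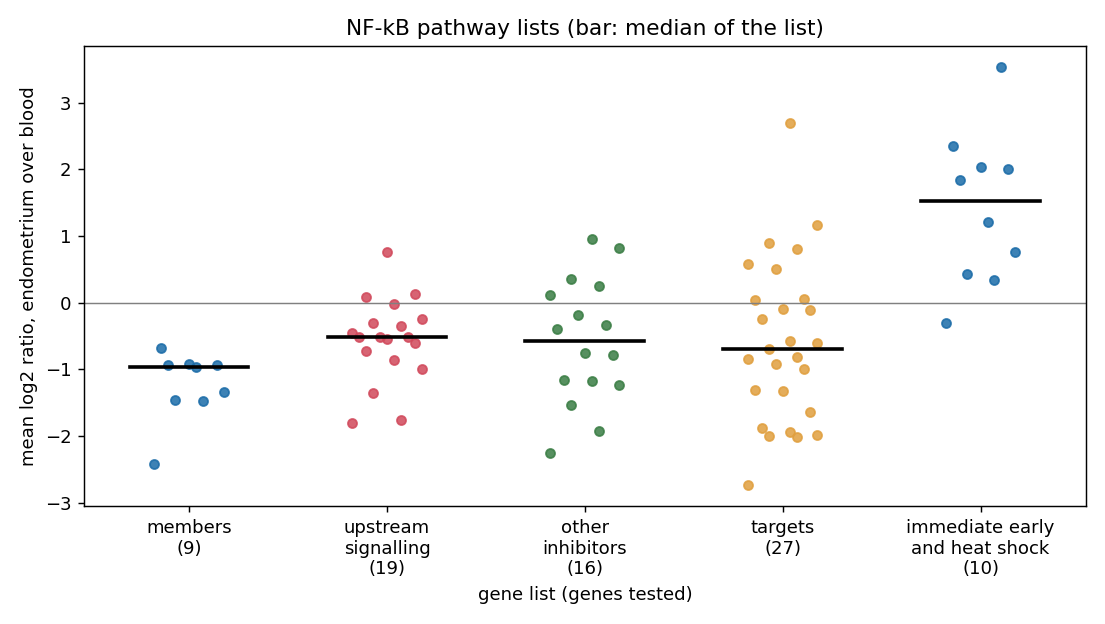
Mean log2 ratio of endometrium over blood of each gene tested (points) in the members and 4 lists, with the median of each list as a black bar. The medians of the members and of the 3 pathway lists lie between -0.97 and -0.52, and that of the immediate early and heat shock genes lies at 1.52.

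Immediate early and heat shock genes, which cell dispersal and handling are known to switch on, were at the opposite end. Of the 10 tested, none was called, and the median log2 ratio was 1.52. A ratio above 0 was found for 9 of the 10, where 52.6% of all probes tested were below 0. HSPA1A, a heat shock chaperone whose near-identical copy HSPA1B may share the probe, was highest at 3.54 ± 0.35 (SE, n = 4), with adjusted p = 0.0774 in limma, and on the authors' log2 values it was called, at 3.70 with adjusted p = 0.0188. FOSB and JUN, parts of the transcription factor AP-1, stood at 2.35 ± 0.80 and 2.04 ± 0.42. The lowest were ZFP36, an mRNA-destabilizing protein, at -0.31 ± 0.27, then JUNB at 0.34 ± 0.23 and IER2 at 0.43 ± 0.23. The median of this list by animal was 1.05, 2.13, 1.84 and 0.59, so it too was nearest to 0 in animal 4. The endometrial cells alone were enzymatically dispersed, so dispersal and tissue cannot be told apart.

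Markers of the sorted cells and of other cell types were read beside these results. CD14, the protein used for the sort, had log2 ratios of -2.08, 0.11, 0.51 and 0.13, with a mean of -0.33 ± 0.48 (SE, n = 4). The log2 levels of CD14 were 14.24, 6.31, 7.63 and 6.69 in blood and 12.17, 6.41, 8.14 and 6.82 in endometrium. They were thus far higher in animal 1 than in the other animals, in both tissues. CD68, a lysosomal protein of macrophages, had a mean log2 ratio of 1.38 ± 0.44. AIF1, the brightest of the 9 myeloid markers tested, was at 2.84 ± 0.82, with 4 of the 9 below 0 and a list median of 1.06. The medians of the myeloid list differed in sign between animals, at -0.66, -0.13, 1.37 and 2.12 in animals 1 to 4. Summed myeloid levels were 6692 to 118708 in blood and 19792 to 98581 in endometrium, and the part of this spread in the result was not tested. Among the lists of other cell types, B cell markers were the ones with the direction of the members. All 6 had a ratio below 0, with a median of -1.65, and the medians in animals 1 to 4 were -1.23, -1.53, -3.75 and -0.23. Their summed level was 6559 to 38198 in blood and 3226 to 16442 in endometrium, in normalized intensity, and none of the 6 was at background in every channel of either tissue. The B cell markers, like the members, were nearest to 0 in animal 4. This was not particular to them. The T and natural killer cell (0.32), immediate early (0.59), trophoblast (3.70), epithelial (2.45) and endothelial (0.04) medians were nearest to 0 in animal 4 as well. Myeloid, stromal and granulocyte medians were not. The SD over all probes tested was also smallest in animal 4, at 0.71. The part of B cells in the result was not tested.

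Other markers ran the opposite way. Markers of T and natural killer cells had a median log2 ratio of 1.02 (8 tested, 6 above 0), with NKG7 brightest at 1.59 ± 0.49 (SE, n = 4) and a summed level of 17875 to 101073 in endometrium and 2966 to 38723 in blood. Trophoblast markers had a median of 3.93, with 6 of the 7 tested above 0, and 5 were called (PAG4, PAG7, PRP1, PRP6 and a placental lactogen). PAG10, the brightest, stood at 4.64 ± 0.43 and was not among those 5. Epithelial markers had a median of 3.11, with all 8 above 0 in all 4 animals and SERPINA14, the uterine serpin, at 6.10 ± 0.51. Summed trophoblast levels were 14166 to 47569 in endometrium and 1268 to 3082 in blood, and summed epithelial levels 11790 to 106313 and 1085 to 2819. Stromal markers, with a median of 2.03 and SPARC at 2.08 ± 0.84, were summed to 605 to 83072 in endometrium and 555 to 1980 in blood. Endothelial markers had a median of 0.71 with VWF at 1.72 ± 0.62, and summed levels of 368 to 3852 and 310 to 483. Granulocyte markers had a median of -0.01 over 3 tested, with LTF at 1.17 ± 0.53 and summed levels of 346 to 1299 and 398 to 507. CAMP and MMP8 among them were at background in all channels. Trophoblast and epithelial markers were higher in endometrium of animal 4 as well, with medians of 3.70 and 2.45, where the members were near 0, and the part of these cells in the result was not tested.

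**Figure D5:**
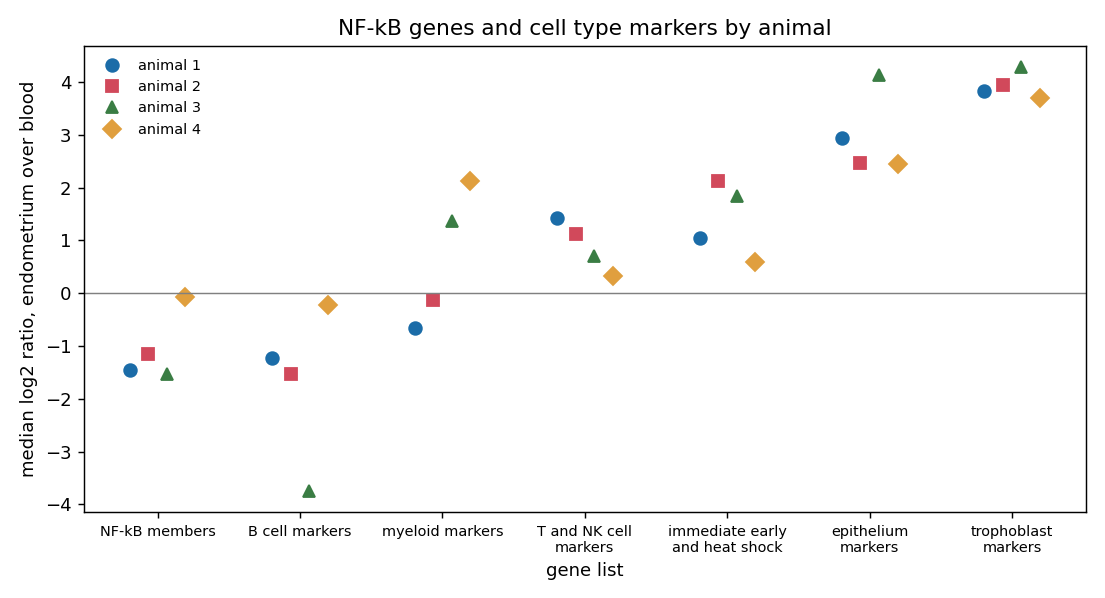
Median log2 ratio of endometrium over blood in each of 4 animals for the 9 NF-kB genes, for lists of cell type markers and for immediate early and heat shock genes. The members and the B cell markers lie below 0 in animals 1, 2 and 3 and near 0 in animal 4 (-0.08 and -0.23), and trophoblast and epithelial markers lie above 2 in every animal.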

How the data were processed

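The authors hybridized amplified RNA of both tissues of a cow in 2 dyes and deposited, per the file headers, Feature Extraction 10.5.1.1 output with the median intensity of each spot and its local background, and a processed signal that the scanner software had corrected for background and dye. They also deposited a matrix of log2 values, normalized by lowess in each array and then by quantiles across 16 channels. Each of its 16 columns equaled, at 100% of spots within 0.001 and with the spots of a probe sorted, the labelled dye of 1 scanner file, namely that of its animal's other technical replicate, and any other channel at 0.714% at most. The files were read in that way, which also fits the dyes stated in the methods.

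In R 4.3.3 with limma 3.58.1, statmod 1.5.0 and the package data.table (1.17.8), background was corrected by normexp (offset 50), followed by loess in each array and quantile normalization across channels. Control spots and outlier flags were left out, and the spots of a probe were averaged. The log2 ratio of endometrium over blood, the mean of an animal's 2 arrays, was tested against 0 with lmFit and eBayes over 4 animals (SE is limma's moderated one, or for the authors' values that of 4 animals). Probes well above background in at least 4 of 8 channels of a tissue were tested, and p was adjusted by Benjamini and Hochberg. An exact permutation test of 4 animals cannot give a two-sided p under 0.125, so none is printed. The fits were tested on simulated data. Tissues were paired by the animal number that the labels share between them. The deviations of paired tissues from their tissue means correlated with r of 0.618, 0.364, 0.209 and 0.465. Precision is limited by the number of animals.

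The members, the lists and the rule for named genes were chosen with earlier results of these data known. The rule named all members, in each pathway list the called genes and the 3 highest and 3 lowest ratios of each gene's brightest probe, CD14, CD68 and the brightest gene of each marker list, of which 1 is not reported here. Names were updated from a RefSeq gene list of assembly ARS-UCD2.0, by accession for 3519 probes, by gene identifier for 9987 and by name, symbol or synonym for 297, 1024 and 48, with 6600 kept as in the files. Files give probes no position, so none is printed. The alternatives changed the signal, the background correction, the normalization, the filter, the pairing, the dye and slide, the animals, the file assignment, the test and its threshold. The study's qPCR and flow cytometry were not analysed here.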

Additional observations from a re-analysis of the deposited data

Results flagged for a closer look

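In the 27 groups of 4 values tested, the 2 tissues' levels and the ratio of each of the 9 members, 1 had a sample that stood far from the others by Dixon's criterion, where chance marks about 1 group in 20. The blood level of NFKBIA in animal 1 was 15.43, against 14.57 to 14.71 in the other animals. The endometrial level of NFKBIA in that animal was 14.44, so its ratio of -0.98 lay within those of the other animals (-1.93 to -0.14).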

How the results depend on the processing

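The direction of all 9 members was the same in each of 15 alternative fits, apart from reading the scanner files as attached. The changes of filter, the fit without the replicate block and the analysis of variance kept the mean ratios of the main fit. Direction could not change in those, so they say nothing about it. The log2 ratios over those 15 ranged from -3.22 to -1.72 for BCL3, from -1.93 to -1.03 for NFKBIE, from -1.62 to -1.03 for RELA and from -2.48 to -0.48 for TNFAIP3. With the files as attached, which turns 3 of the 4 animals around and which the value table goes against, the median of the members reversed to 0.22, and the ratios became 0.69 (NFKB2), 0.59 (REL), 0.21 (RELA), 0.22 (RELB), 0.58 (NFKBIA), 0.07 (NFKBIE), 0.34 (TNFAIP3), 0.21 (IKBKB) and 0.17 (BCL3), with adjusted p of 1 in limma and 0 probes called. The count of members called moved from 0 to 2 with a term for the dye and a random block for the animal. That fit took the 8 arrays of 4 animals singly. The count of members stayed at 0 in the other alternatives. The count over all probes, 11, became 171 with the scanner's processed signal, 224 with the authors' log2 values and 5 with loess alone. It was 50 without background correction, 5 without the filter, 44 with the stricter filter and 793 with the dye term. On the first and second slide alone it was 5 and 20, and without any 1 animal it was 0. The analysis of variance of the methods called 0, with 687 probes more than 2-fold different at its unadjusted p of 0.05 or less. It was applied to the ratios normalized here and not to the authors' values. The study's own analysis did report differentially expressed genes. Without the replicate block, that is without pairing the tissues of an animal, 4 probes were called and 0 members, with adjusted p of 0.369 to 0.66 for the members. The causes of these moves were not tested. Among the pathway lists, the targets had 1 gene called with the processed signal and with the authors' values, VCAM1 in both. With the dye term the upstream list had 2 (MAP3K8 and TRAF3), the inhibitors 2 (NFKBIZ and TANK) and the targets 3 (VCAM1, CD40 and CXCL8, the last 2 named after their values were seen). The probe of TNFAIP3 was not well above background in every endometrial channel, and the effect of this on its ratio was not tested.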
